A study of Homo sapiens with 12 samples.

Results

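Lipid droplets are stores of triglyceride and sterol ester wrapped in a phospholipid monolayer, and the proteins described here coat them or release fatty acids from them. Transcripts of 10 genes were followed by symbol through both expression tables of the study: 4 perilipins (PLIN2, PLIN3, PLIN4 and PLIN5), 3 lipases (PNPLA2, LIPE and MGLL), the lipase activator ABHD5 and the lipase inhibitors G0S2 and HILPDA. All 10 were found in both tables, each on 1 gene identifier, out of 60630 identifiers that the tables share. The cells were SZ95 sebocytes, an immortalised human line from the sebaceous gland, and 12 RNA libraries were made, 3 for each of 4 treatments: PGN with RVT, PGN alone, LA with RVT, and LA alone. RVT is resveratrol, a plant polyphenol named in the study's title beside lipid accumulation, inflammation and the kinase AMPK. The labels do not spell out LA and PGN, here taken to mean linoleic acid, which fills sebocytes with droplets, and peptidoglycan, a bacterial wall component that triggers inflammation. There was no untreated group, so every RVT effect below is relative to cells that had received the same stimulus without RVT.

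Perilipins shield droplets from lipases. PLIN2 and PLIN3 are made in most cell types, PLIN2 being held on droplets and PLIN3 moving to them from the cytosol, while PLIN4 and PLIN5 are known mainly from fat, muscle and other oxidative tissue. Triglyceride is broken down in steps: PNPLA2 (adipose triglyceride lipase) removes the first fatty acid, LIPE (hormone-sensitive lipase) acts on the diglyceride and on sterol esters, and MGLL (monoglyceride lipase) splits the last monoglyceride. ABHD5 (CGI-58) binds PNPLA2 and raises its activity, whereas G0S2 and HILPDA bind PNPLA2 and lower it. Sebocytes fill with droplets as they mature and then burst to release sebum.

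The inhibitor G0S2 was the most abundant of the 10 transcripts in every library, and RVT moved it in opposite directions under the 2 stimuli: down with PGN and up with LA. PNPLA2, the lipase it inhibits, and the coat gene PLIN3 rose with RVT under PGN, and neither passed the test under LA. MGLL rose with RVT under LA, with a smaller difference under PGN that did not pass. Proteins, droplets and fatty acid release were not measured in the files used here.

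The promoters of G0S2, PNPLA2 and PLIN3, whose RVT effect was called under PGN and differed from that under LA, are printed so that the letters around their starts can be compared. They come from RefSeq on GRCh38.p14, each from 250 bases before to 50 bases after an annotated start, 5′ to 3′ on the gene's strand, in lower case. G0S2 is taken from chr1:209675162-209675461 on the plus strand, PNPLA2 from chr11:818664-818963 on the plus strand and PLIN3 from chr19:4867618-4867917 on the minus strand. Capitals mark the hypoxia response element core (ACGTG or GCGTG, read on either strand) and a sterol response element type of motif (TCACNCCAC, either strand).
G0S2: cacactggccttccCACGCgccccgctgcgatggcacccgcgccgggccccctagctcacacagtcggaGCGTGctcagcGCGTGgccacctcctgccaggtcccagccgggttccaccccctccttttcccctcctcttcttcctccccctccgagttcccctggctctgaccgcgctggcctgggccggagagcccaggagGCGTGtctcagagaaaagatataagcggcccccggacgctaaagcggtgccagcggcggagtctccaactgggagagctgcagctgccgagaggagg
PNPLA2: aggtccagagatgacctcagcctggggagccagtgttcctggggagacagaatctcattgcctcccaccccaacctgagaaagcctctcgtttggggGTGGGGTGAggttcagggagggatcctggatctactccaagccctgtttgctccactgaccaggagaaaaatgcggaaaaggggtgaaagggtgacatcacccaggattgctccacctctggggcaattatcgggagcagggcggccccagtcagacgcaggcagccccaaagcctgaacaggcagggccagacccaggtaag
PLIN3: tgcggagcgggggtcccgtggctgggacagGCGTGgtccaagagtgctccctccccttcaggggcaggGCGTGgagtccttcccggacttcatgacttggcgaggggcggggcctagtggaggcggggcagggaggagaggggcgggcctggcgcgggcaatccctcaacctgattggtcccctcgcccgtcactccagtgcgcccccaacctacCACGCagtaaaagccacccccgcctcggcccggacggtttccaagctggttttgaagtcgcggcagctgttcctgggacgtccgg

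Among the printed windows, that of G0S2 held 4 hypoxia response element cores, starting at bases -236, -181, -170 and -47 from the start, and that of PLIN3 held 3, at -220, -182 and -35. The PNPLA2 window held none of them and 1 sterol type motif at -153, found as its reverse complement. Windows of members called in no comparison held hypoxia cores too. They lay at -120, -85, -69, -68 and -3 for PLIN2, and at -105 and -92 for PLIN5. For PLIN2, those at -69 and -68 are 1 overlapping stretch read on both strands. ABHD5 windows 1 and 2 overlap and share 1 core, at -35 from the first start and -103 from the second. The windows of PLIN4 and LIPE held none, so the cores do not set the called genes apart. Of 35116 promoter windows of the same length, 48.4% held at least 1 hypoxia response element core and 1.13% held the sterol type motif. No share was computed for windows with several cores. An AP-1 site (TGANTCA) was present in 7.71% of windows and a direct repeat of the PPAR type in 0.0228%, and neither was found in the windows of the 8 members matched by symbol. MGLL and HILPDA were not matched. The hypoxia core letters are therefore common, and a match is a description of the letters, not of a bound site.

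Values are TPM, transcript shares corrected for length and scaled to the same total in each library, so levels of different genes within a library can be compared. The deposited TPM holds no read depth, and a gene's share can also move because others moved. A library had 14489 to 15452 genes at 1 TPM or more. The 2 stimuli were tabulated separately with different gene annotations, so PGN and LA levels are set side by side only. The differences between groups were tested with limma on log2(TPM + 1), a scale that understates changes of genes near or under 1 TPM, and a gene was called when its Benjamini-Hochberg adjusted p over all genes tested was under 0.05. In bulk RNA, fewer cells that express a gene and less RNA per cell cannot be told apart. SZ95 is a single line, and nothing says whether the replicates came from separate culture days, so the p-values cover only the spread among these 12 libraries.

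Under PGN, 8 of the 10 genes were abundant enough to be tested (a mean of at least 1 TPM), of which RVT raised 3 and lowered 1. The median log2 change of the 8 was 0.20, against 0.06 over all genes tested. Of 14622 genes tested in that arm, 15.6% were called, 10.6% higher and 4.92% lower. Under LA, 9 were tested, and the 2 called were both higher. The median log2 change of the 9 was -0.06, against 0.04 over all genes tested, of which 15.7% were called (10.7% higher and 5.07% lower). At an unadjusted p under 0.05, 3 members passed under LA, the third being PLIN5, which was lower but entered the test only through the LA group, so it is no support for a fall. PLIN4 was below the minimum in both arms and PLIN5 in the PGN arm.

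**Figure D1:**
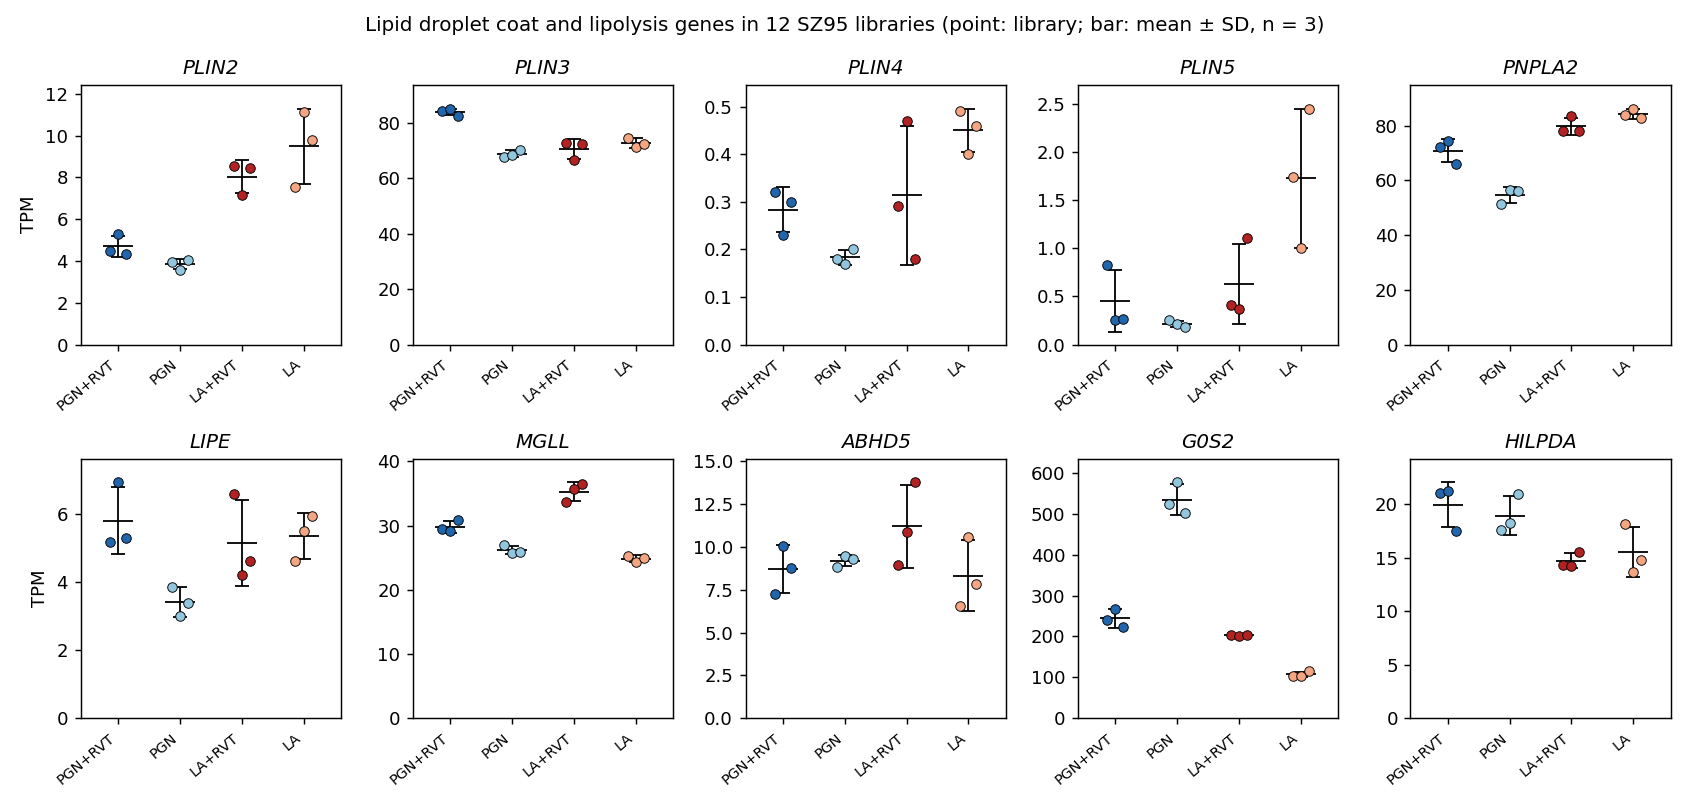
TPM of each gene (vertical axis, linear, from 0) in the 12 libraries, by treatment; points are libraries and bars are the mean ± SD of 3. G0S2 separates libraries with and without RVT within each stimulus. PLIN3 and PNPLA2 stand higher in PGN+RVT than in PGN libraries, and MGLL stands higher in LA+RVT than in LA libraries.

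PLIN3, also known as TIP47 and encoded at chr19:4838341-4867768 on the minus strand (all gene positions are those of GENCODE 29 on GRCh38), supplied most of the coat transcript. It had 84.5, 85.0 and 82.6 TPM in the PGN+RVT libraries, against 67.8, 68.6 and 70.4 TPM in the PGN libraries. All 3 RVT libraries lay above all 3 without it, and the mean was 84.0 ± 1.25 TPM with RVT and 69.0 ± 1.34 TPM with PGN alone (SD, n = 3 each). The log2 fold change was 0.28 (SE 0.04, limma adjusted p = 0.0066), a mean 1.22 times that of PGN. In the LA arm PLIN3 had 72.9, 66.5 and 72.5 TPM with RVT, against 74.6, 71.3 and 72.6 TPM with LA alone. These groups overlapped, and the log2 fold change of -0.05 had a 95% confidence interval from -0.15 to 0.06 (limma adjusted p = 0.564).

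PLIN2, the coat protein usually read as a marker of droplet load, lies at chr9:19108375-19149290 on the minus strand. It had 4.49, 5.27 and 4.32 TPM in the PGN+RVT libraries, against 3.97, 3.59 and 4.03 TPM in the PGN libraries. The groups did not overlap, but the log2 fold change of 0.22 (95% confidence interval -0.04 to 0.49) did not pass the test (limma adjusted p = 0.219). With LA it had 8.53, 7.15 and 8.45 TPM in the RVT libraries, against 7.54, 11.1 and 9.77 TPM in the libraries without it. Those groups overlapped (log2 fold change -0.20, 95% confidence interval -0.54 to 0.14, limma adjusted p = 0.396). PLIN2 thus stood at 7.15 to 11.1 TPM in the LA table and at 3.59 to 5.27 TPM in the PGN table, a pair of ranges that cannot be tested across tables.

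PLIN4 (chr19:4502180-4518465, minus strand) and PLIN5 (chr19:4522531-4535224, minus strand) were the least abundant of the 10. PLIN4 ranged from 0.17 to 0.49 TPM over the 12 libraries and was tested in no comparison. Its PGN+RVT libraries, at 0.32, 0.23 and 0.30 TPM, lay above the PGN libraries at 0.18, 0.17 and 0.20 TPM, and its LA+RVT libraries, at 0.29, 0.47 and 0.18 TPM, overlapped the LA libraries at 0.49, 0.40 and 0.46 TPM. PLIN5 is known for joining droplets to mitochondria. It had 0.41, 0.37 and 1.11 TPM in the LA+RVT libraries, against 1.74, 1.0 and 2.45 TPM in the LA libraries, where it passed the minimum of 1 TPM only through the LA group. The groups overlapped, and the log2 fold change of -0.74 (SE 0.28) did not pass (limma adjusted p = 0.127). In the PGN arm PLIN5 had 0.83, 0.26 and 0.27 TPM with RVT, 1 library standing apart, against 0.25, 0.21 and 0.18 TPM with PGN alone. The gene AC011498.4 overlaps 6798 bases of PLIN5 on the same strand and was listed at up to 0.71 TPM. Its part in the PLIN5 values was not tested.

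Summed over the 4 perilipins, the coat transcript was 90.1, 90.8 and 87.5 TPM in the PGN+RVT libraries, against 72.2, 72.6 and 74.8 TPM in the PGN libraries. The groups did not overlap, and the sum was 1.22 times as high with RVT (exact permutation p = 0.1, two-sided, the smallest that 3 against 3 libraries can give). With LA the sums were 82.1, 74.5 and 82.2 TPM in the RVT libraries, against 84.4, 83.9 and 85.2 TPM in the libraries without it, 0.941 times as high (exact permutation p = 0.1). On the log2 scale that difference was -0.09 with all libraries and -0.04 without LA+RVT replicate 2. PLIN3 made up 93.7 to 94.5% of the sum in the PGN table and 85.0 to 89.3% in the LA table, and PLIN2 made up 4.94 to 5.81% and 8.93 to 13.3%.

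PNPLA2, the lipase that starts triglyceride breakdown, lies at chr11:818902-825573 on the plus strand. It had 72.1, 74.3 and 66.0 TPM in the PGN+RVT libraries, against 51.3, 56.6 and 56.0 TPM in the PGN libraries. Every RVT library lay above every PGN library, with means of 70.8 ± 4.29 and 54.6 ± 2.88 TPM (SD, n = 3 each) and a log2 fold change of 0.37 (SE 0.06, limma adjusted p = 0.0115). The call depended on 1 library and on the scaling: without PGN+RVT replicate 1 the log2 fold change was 0.35 (limma adjusted p = 0.0509), and with library medians equalised it was 0.31 (limma adjusted p = 0.0518). In the LA arm PNPLA2 had 78.0, 83.3 and 77.9 TPM with RVT, against 83.8, 86.2 and 82.6 TPM with LA alone. The groups overlapped (log2 fold change -0.08, 95% confidence interval -0.17 to 0.02, limma adjusted p = 0.236).

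LIPE lies at chr19:42401507-42427426 on the minus strand and was far less abundant than PNPLA2 in every library. It had 5.19, 6.93 and 5.28 TPM in the PGN+RVT libraries, against 3.86, 2.99 and 3.39 TPM in the PGN libraries. The groups did not overlap, the mean was 1.70 times as high with RVT, and the log2 fold change was 0.62 (SE 0.14, limma adjusted p = 0.0253). That call was lost in 7 of 11 alternatives, with adjusted p of 0.0795 and 0.0606 without PGN replicate 2 or 3, 0.0565, 0.0730 and 0.0569 without PGN+RVT replicate 1, 2 or 3, and 0.0866 without the filter on low values. The antisense gene LIPE-AS1 covers all 25920 bases of LIPE and was listed at 4.64, 0.13 and 4.16 TPM with PGN+RVT and 1.40, 1.48 and 1.38 TPM with PGN. The sources used here do not say if the counting used strand, and without it reads of the pair cannot be told apart. More abundant opposite-strand genes overlap parts of other members. These were SEC61A1 over 550 bases of MGLL, ANO10 over 1487 bases of ABHD5 and HDGFL2 over 32 bases of PLIN4. They were listed at up to 202, 15.0 and 78.4 TPM. The part of these overlaps in the values of the members was not tested. With LA, LIPE had 6.6, 4.22 and 4.63 TPM in the RVT libraries, against 4.61, 5.49 and 5.94 TPM in the libraries without it, with overlap (log2 fold change -0.06, limma adjusted p = 0.851).

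MGLL, which completes triglyceride breakdown and also degrades the endocannabinoid 2-arachidonoylglycerol, lies at chr3:127689062-128052190 on the minus strand. It had 29.5, 29.1 and 30.8 TPM in the PGN+RVT libraries, against 27.0, 25.8 and 25.8 TPM in the PGN libraries. These groups did not overlap, yet the log2 fold change of 0.18 (95% confidence interval 0.05 to 0.31) did not pass after adjustment (limma adjusted p = 0.0713). With LA the values were 33.65, 35.7 and 36.5 TPM in the RVT libraries, against 25.3, 24.3 and 24.9 TPM in the libraries without it. All RVT libraries were higher, with means of 35.3 ± 1.46 and 24.8 ± 0.535 TPM (SD, n = 3 each), and MGLL rose by 0.49 on the log2 scale (SE 0.05, limma adjusted p = 0.00159).

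ABHD5, the activator of PNPLA2, lies at chr3:43690108-43734371 on the plus strand, and its loss causes a neutral lipid storage disease with scaly skin in people. It had 7.25, 10.03 and 8.79 TPM in the PGN+RVT libraries, against 8.82, 9.46 and 9.27 TPM in the PGN libraries, with overlap (log2 fold change -0.08, limma adjusted p = 0.683). With LA it had 8.93, 10.9 and 13.8 TPM in the RVT libraries, against 6.55, 10.6 and 7.83 TPM in the libraries without it. Those groups also overlapped, and the 95% confidence interval of the log2 fold change of 0.39 ran from -0.08 to 0.86 (limma adjusted p = 0.233), so a change of moderate size could not be detected with this spread.

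G0S2, a small protein that binds the catalytic part of PNPLA2, is encoded at chr1:209675420-209676388 on the plus strand. It had 241, 268 and 222 TPM in the PGN+RVT libraries, against 524, 577 and 502 TPM in the PGN libraries. Every library with RVT lay far below every library without it, with means of 244 ± 23.0 and 534 ± 38.3 TPM (SD, n = 3 each). G0S2 fell by 1.13 on the log2 scale (SE 0.08, limma adjusted p = 0.000322), to 0.456 times the PGN mean. In the LA arm it had 204, 202 and 203 TPM with RVT, against 103, 103 and 115 TPM with LA alone. Here every RVT library lay above every LA library, with means of 203 ± 1.01 and 107 ± 6.95 TPM (SD, n = 3 each), a rise of 0.92 on the log2 scale (SE 0.05, limma adjusted p = 0.000191) or 1.90 times. The antisense gene AL031316.1 covers all 969 bases of G0S2 and was listed at 0.65 to 4.34 TPM in the 12 libraries, far under G0S2 itself.

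HILPDA, an inhibitor of PNPLA2 that hypoxia induces, lies at chr7:128455849-128458418 on the plus strand. It had 21.1, 21.3 and 17.5 TPM in the PGN+RVT libraries, against 17.6, 18.3 and 21.0 TPM in the PGN libraries (log2 fold change 0.07, 95% confidence interval -0.16 to 0.30, limma adjusted p = 0.687). With LA it had 14.3, 14.3 and 15.5 TPM in the RVT libraries, against 18.1, 13.7 and 14.8 TPM in the libraries without it (log2 fold change -0.06, 95% confidence interval -0.31 to 0.19, limma adjusted p = 0.735). Groups overlapped in both arms, so of the 2 inhibitors only G0S2 was called in either arm.

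Groups did not overlap for 6 of the 8 genes tested under PGN, against 36.1% of all genes tested there, and for 2 of the 9 tested under LA, against 36.2%. Ordered by mean TPM, G0S2 came first in all 4 treatments. PLIN3 and then PNPLA2 followed under PGN with or without RVT, and PNPLA2 and then PLIN3 under LA with or without it. MGLL and then HILPDA came next throughout, and PLIN5 and PLIN4 were last. Neighbours in this order whose libraries overlapped were LIPE and PLIN2 in both PGN treatments, PLIN2 and ABHD5 with LA alone, and PLIN5 and PLIN4 in every treatment but LA alone.

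**Figure D2:**
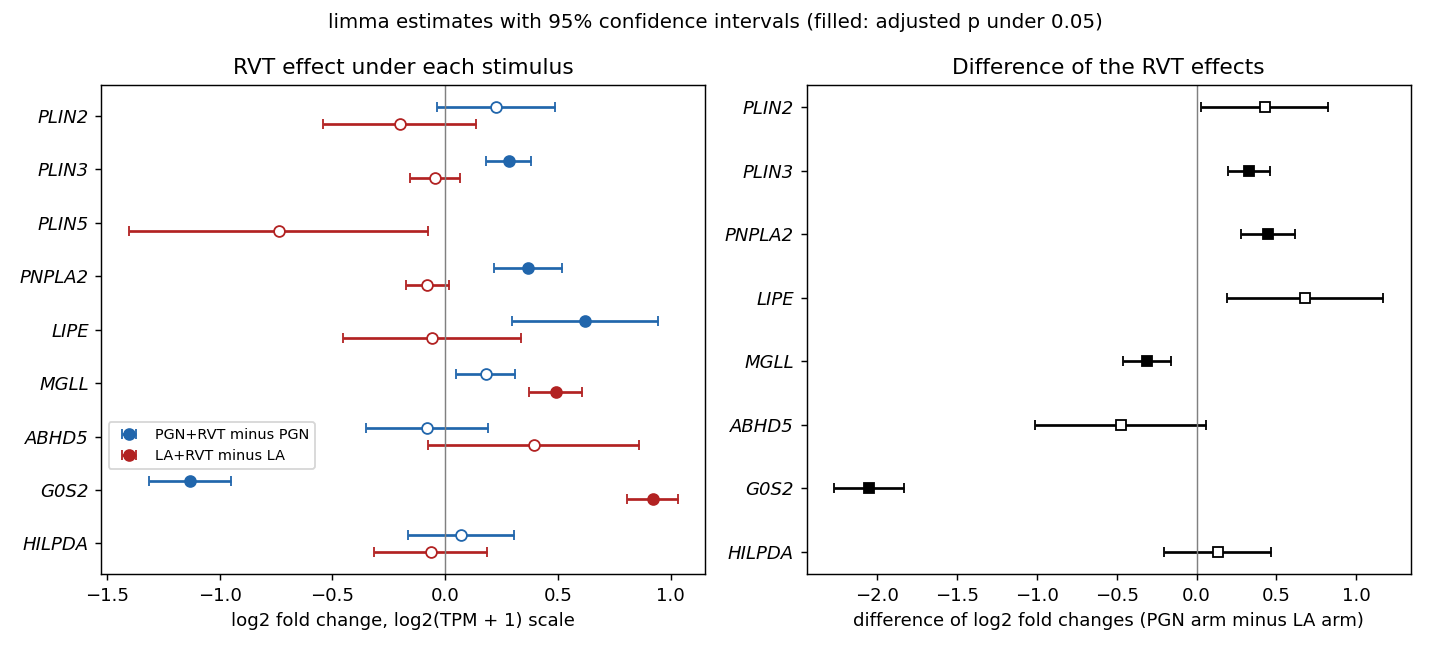
limma log2 fold changes with 95% confidence intervals on the log2(TPM + 1) scale: left, RVT against no RVT in the PGN arm (blue) and the LA arm (red); right, the PGN effect minus the LA effect. Filled marks have an adjusted p under 0.05. G0S2 lies at -1.13 and 0.92 in the 2 arms and at -2.05 in their difference.

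Whether RVT acted differently under the 2 stimuli was tested directly, as the RVT effect in the PGN arm minus that in the LA arm, over all 12 libraries. Of 15177 genes tested, 14.8% were called (7.73% positive and 7.03% negative), and of the 8 members tested 4 were called. G0S2 had an effect of -1.13 under PGN and 0.92 under LA, and the difference of -2.05 (95% confidence interval -2.27 to -1.83) passed with an adjusted p of 3.68e-07 in limma. MGLL also had a negative difference of -0.31 (SE 0.07, limma adjusted p = 0.0103). Its log2 fold change was 0.49 under LA and 0.18 under PGN, where it was not called.

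The positive differences were those of PNPLA2, 0.45 (SE 0.08, limma adjusted p = 0.00288), and of PLIN3, 0.33 (SE 0.06, limma adjusted p = 0.00403). For both, the PGN libraries moved up with RVT and the LA libraries overlapped. These 4 calls held in all 17 alternatives run for this comparison. LIPE had a difference of 0.68 that did not pass (95% confidence interval 0.19 to 1.17, limma adjusted p = 0.0644) and did so without LA+RVT replicate 1 (0.84, limma adjusted p = 0.0199). PLIN2 had 0.43 (95% confidence interval 0.03 to 0.82, limma adjusted p = 0.145) and passed in 1 of 17 alternatives, without LA replicate 1 (0.57, limma adjusted p = 0.0386). The differences of ABHD5 (-0.47, 95% confidence interval -1.01 to 0.06) and HILPDA (0.13, 95% confidence interval -0.20 to 0.47) were not called (limma adjusted p = 0.235 and 0.626).

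G0S2, HILPDA and ABHD5 all bind PNPLA2, so each was also expressed per PNPLA2 transcript within a library. There were 3.34, 3.61 and 3.37 G0S2 transcripts per PNPLA2 transcript in the PGN+RVT libraries, against 10.2, 10.2 and 8.97 in the PGN libraries. With LA there were 2.62, 2.43 and 2.61 in the RVT libraries, against 1.23, 1.20 and 1.39 in the libraries without it. The ratio was thus 0.354 times as high with RVT under PGN and 2.0 times as high under LA, with no overlap in either arm (exact permutation p = 0.1 each, two-sided, the smallest possible). These folds were computed with 1 TPM added to each gene.

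HILPDA per PNPLA2 transcript was 0.292, 0.286 and 0.266 in the PGN+RVT libraries, against 0.343, 0.323 and 0.375 in the PGN libraries, 0.813 times as high and without overlap (exact permutation p = 0.1). ABHD5 per PNPLA2 transcript was 0.101, 0.135 and 0.133 with PGN+RVT, against 0.172, 0.167 and 0.166 with PGN, 0.732 times as high and without overlap (exact permutation p = 0.1). The activator and both inhibitors thus stood lower relative to the lipase with RVT under PGN, and since all share PNPLA2 as denominator these are not independent observations.

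In the LA arm neither of those 2 ratios separated the groups. HILPDA per PNPLA2 transcript was 0.184, 0.171 and 0.200 in the RVT libraries, against 0.216, 0.159 and 0.179 in the LA libraries (exact permutation p = 0.9). ABHD5 per PNPLA2 transcript was 0.115, 0.131 and 0.177 with RVT, against 0.0781, 0.123 and 0.0947 with LA (exact permutation p = 0.2). The 8 ratio and sum comparisons cannot reach 0.05 with 3 libraries a group, with or without adjustment.

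**Figure D3:**
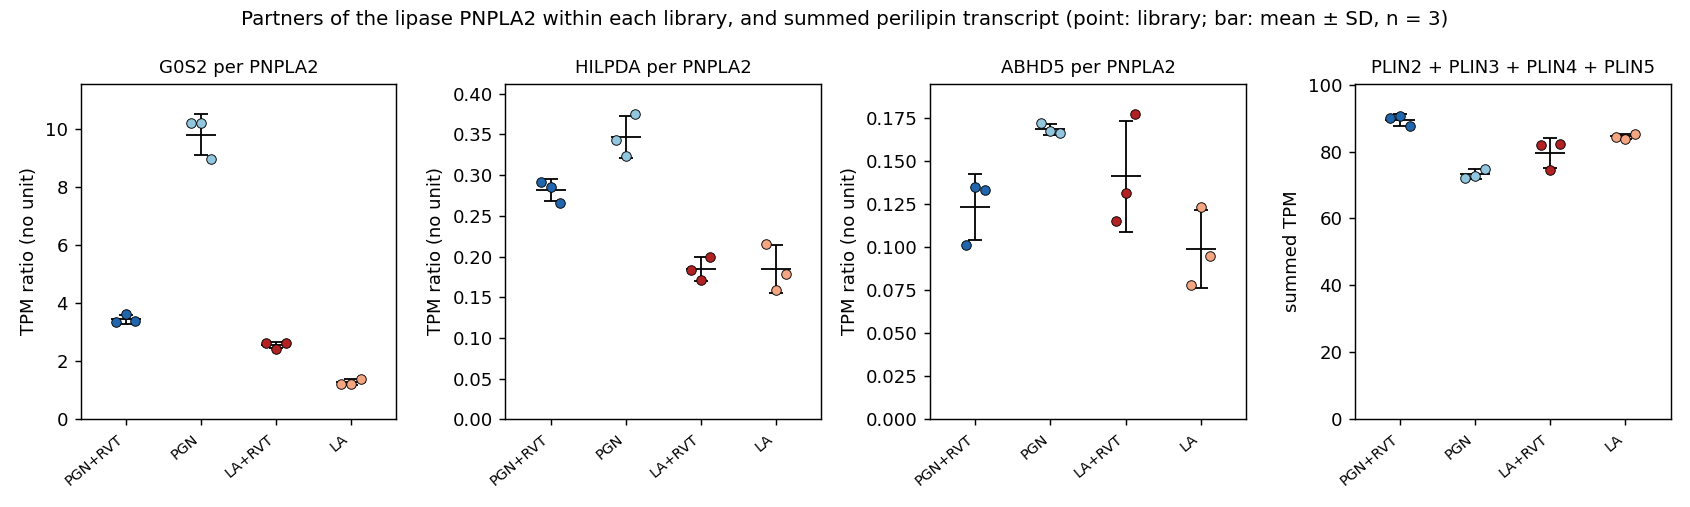
Transcripts of G0S2, HILPDA and ABHD5 per PNPLA2 transcript, and summed TPM of the 4 perilipins (vertical axes, linear, from 0), by treatment; points are libraries and bars are the mean ± SD of 3. G0S2 per PNPLA2 is about 3.34 to 3.61 in PGN+RVT and 8.97 to 10.2 in PGN libraries, and 2.43 to 2.62 in LA+RVT and 1.20 to 1.39 in LA libraries.

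The genes whose pattern was most like that of G0S2, by Pearson's r of log2(TPM + 1) centred within each table over the 12 libraries and among 10530 genes of at least 5 TPM in each table, were FOSL1 (r = 0.991), THBS1 (0.981) and SPRR1B (0.978). FOSL1, a subunit of the transcription factor AP-1, averaged 205 ± 11.4 TPM with PGN+RVT and 411 ± 25.2 TPM with PGN, and 274 ± 16.9 TPM with LA+RVT and 160 ± 6.19 TPM with LA (SD, n = 3 each). THBS1, the matrix glycoprotein thrombospondin 1, averaged 346 ± 14.7 TPM with PGN+RVT and 742 ± 19.5 TPM with PGN, and 264 ± 18.0 TPM with LA+RVT and 155 ± 6.39 TPM with LA (SD, n = 3 each). SPRR1B is a cornified envelope precursor and is also on the keratinocyte marker list. The libraries form 4 groups, so r mainly measures the likeness of the group means and carries no p.

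Other genes of droplets and lipolysis were taken from lists. Of the list of droplet coat and formation genes, 14 were tested, and all 5 called under PGN were higher with RVT, while under LA 1 was higher and 1 lower. Among all genes tested, 10.6% were called higher and 4.92% lower under PGN, and 10.7% and 5.07% under LA. These shares also stand beside the counts of the lists below. With library medians equalised, 850 genes were called higher and 1020 lower under PGN, so the lean of that arm towards higher calls depended on the scaling. Of the calls on the droplet list, 2 of the 5 under PGN (BSCL2 and METTL7B) and none of the 2 under LA held in all 11 alternatives. BSCL2 (seipin), which shapes nascent droplets, had the smallest p under PGN, with 194 ± 5.71 TPM with PGN+RVT and 135 ± 9.44 TPM with PGN (SD, n = 3 each, log2 fold change 0.53, limma adjusted p = 0.00191). With LA, BSCL2 had 151 ± 8.29 TPM with RVT and 140 ± 4.0 TPM without it (SD, n = 3 each), with overlap, and the difference of the effects was 0.41 (limma adjusted p = 0.00455). The median log2 change of the list was 0.12 under PGN and 0.02 under LA.

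The list of other neutral lipid hydrolases also holds enzymes that act on other lipids, such as the phospholipase LIPH. Of its 19 tested genes, 4 were higher and 1 lower with RVT under PGN, and 3 were higher and 1 lower under LA (median log2 change 0.15 and 0.08). In all 11 alternatives, 1 of the 5 calls under PGN (LPL) and 2 of the 4 under LA (LIPG and LIPA) held. LPL (lipoprotein lipase), which frees fatty acids outside the cell, fell with RVT under PGN, with 9.30 ± 0.63 TPM with PGN+RVT and 14.9 ± 1.51 TPM with PGN (SD, n = 3 each, log2 fold change -0.62, limma adjusted p = 0.00616). Under LA it was also lower, with 6.76 ± 0.76 TPM with LA+RVT and 11.4 ± 2.31 TPM with LA (SD, n = 3 each, log2 fold change -0.66, limma adjusted p = 0.0283), and the effects differed by 0.04 (95% confidence interval -0.365 to 0.439, limma adjusted p = 0.928). The LA call of LPL was lost in 7 of 11 alternatives, among them leaving out LA replicate 1 or 2 (limma adjusted p = 0.0837 and 0.0679) or LA+RVT replicate 1 or 2 (0.0793 and 0.0855). LIPG (endothelial lipase) rose under LA, with 147 ± 2.55 TPM with LA+RVT and 111 ± 1.86 TPM with LA (SD, n = 3 each, log2 fold change 0.40, limma adjusted p = 0.000594). The RVT effect on LIPG differed between the stimuli by -0.30 (limma adjusted p = 0.00807). LIPH, a phospholipase that makes lysophosphatidic acid, differed the other way, by 0.69 (limma adjusted p = 0.00253), with 15.9 ± 1.96 TPM with PGN+RVT and 10.7 ± 0.665 TPM with PGN, and 26.6 ± 1.3 TPM with LA+RVT and 29.9 ± 1.01 TPM with LA (SD, n = 3 each). It was called under PGN (log2 fold change 0.53, limma adjusted p = 0.0151; 0.0548 without PGN replicate 2 and 0.0581 without PGN+RVT replicate 1) and not under LA (-0.16, limma adjusted p = 0.092).

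Of 19 tested genes for cAMP and hormone control of lipolysis, 4 were higher and 1 lower with RVT in each arm (median log2 change 0.11 under PGN and 0.08 under LA). The genes called were not all the same, and 3 differences of the effects were positive and 3 negative. HCAR2 was lower under LA (log2 fold change -0.405, limma adjusted p = 0.00924) and higher under PGN (0.316, limma adjusted p = 0.0208). Its PGN call was lost in 5 of 11 alternatives. Its effects differed by 0.72 (limma adjusted p = 0.000475), a call that held in all 17 alternatives. In all 11 alternatives, 1 of the 5 calls under PGN and 3 of the 5 under LA held. IRS2, an insulin receptor substrate, rose under LA, with 15.6 ± 0.718 TPM with LA+RVT and 10.4 ± 0.282 TPM with LA (SD, n = 3 each, log2 fold change 0.54, limma adjusted p = 0.00275). The RVT effect on IRS2 differed between the stimuli by -0.64 (limma adjusted p = 0.00228).

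PPAR factors respond to fatty acids and drive perilipin and lipase genes in many tissues. PPARG, the form tied to sebocyte differentiation, averaged 23.1 ± 0.864 TPM with PGN+RVT and 38.7 ± 0.832 TPM with PGN, and 22.3 ± 1.3 TPM with LA+RVT and 23.0 ± 1.19 TPM with LA (SD, n = 3 each). It fell by 0.72 on the log2 scale under PGN (limma adjusted p = 0.000473), was not called under LA (log2 fold change -0.05, limma adjusted p = 0.685), and the effects differed by -0.67 (limma adjusted p = 0.000312). PPARD rose under LA, with 33.1 ± 1.29 TPM with LA+RVT and 27.4 ± 0.435 TPM with LA (SD, n = 3 each, log2 fold change 0.27, limma adjusted p = 0.0126). Its PGN effect of 0.29 (limma adjusted p = 0.0227) was lost in 7 of 11 alternatives, among them leaving out PGN replicate 1 or 3 (limma adjusted p = 0.0508 and 0.0562) or PGN+RVT replicate 1, 2 or 3 (0.0726, 0.0558 and 0.0795). PPARA was called in neither arm (limma adjusted p = 0.19 under PGN and 0.814 under LA).

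On the list of PPAR target genes, 2 were higher and 3 lower with RVT of 13 tested under PGN, and 4 of 14 tested under LA were called, each lower (median log2 change 0.14 and -0.10). Of all genes tested, 10.6% were called higher and 4.92% lower under PGN, and 10.7% and 5.07% under LA. In each arm 1 call held in all 11 alternatives, LPL under PGN and TXNIP under LA. Of the 4 under LA, PDK4 reached the minimum of 1 TPM through the LA group alone, and ACAA2, LPL and PDK4 lost their calls in 9, 7 and 5 alternatives. TXNIP, a regulator of glucose uptake, had the smallest p under LA, with 187 ± 3.0 TPM with LA+RVT and 219 ± 5.78 TPM with LA (SD, n = 3 each, log2 fold change -0.22, limma adjusted p = 0.00435). Under PGN it was higher, with 84.0 ± 1.1 TPM with PGN+RVT and 68.7 ± 6.29 TPM with PGN (SD, n = 3 each, log2 fold change 0.29, limma adjusted p = 0.0333), and the effects differed by 0.51 (limma adjusted p = 0.00142). The PGN call was lost in 7 of 11 alternatives, among them leaving out PGN replicate 2 (limma adjusted p = 0.0704) or PGN+RVT replicate 1, 2 or 3 (0.108, 0.0940 and 0.0848).

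HIF1A and EPAS1 encode the oxygen-regulated subunits whose targets include HILPDA. HIF1A averaged 84.2 ± 4.02 TPM with PGN+RVT and 94.1 ± 5.71 TPM with PGN (SD, n = 3 each), and was not called (log2 fold change -0.16, limma adjusted p = 0.131), a change that passed with library medians equalised (-0.22, limma adjusted p = 0.0366). Under LA it rose, with 79.1 ± 2.81 TPM with LA+RVT and 66.1 ± 0.651 TPM with LA (SD, n = 3 each, log2 fold change 0.26, limma adjusted p = 0.00621). EPAS1 also rose under LA (log2 fold change 0.27, limma adjusted p = 0.00524) and was not called under PGN (0.02, limma adjusted p = 0.852). Of 17 tested HIF targets, the 5 called under PGN were all lower with RVT, and under LA 2 were higher and 2 lower (median log2 change -0.17 and 0.06). The shares over all genes tested were 10.6% higher and 4.92% lower under PGN, and 10.7% and 5.07% under LA. In all 11 alternatives, 4 of the 5 calls under PGN held, ERO1A being the exception, and 2 of the 4 under LA (CA9 and ADM), those of NDRG1 and ERO1A being lost in 8 and 7.

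VEGFA, an angiogenic growth factor, averaged 33.9 ± 1.98 TPM with PGN+RVT and 55.3 ± 1.46 TPM with PGN (SD, n = 3 each, log2 fold change -0.69, limma adjusted p = 0.000747). CA9, carbonic anhydrase 9, fell in both arms, by 0.81 on the log2 scale under PGN and by 1.22 under LA (limma adjusted p = 0.00533 and 0.00139). HILPDA itself was called in neither arm, as given above.

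**Figure D4:**
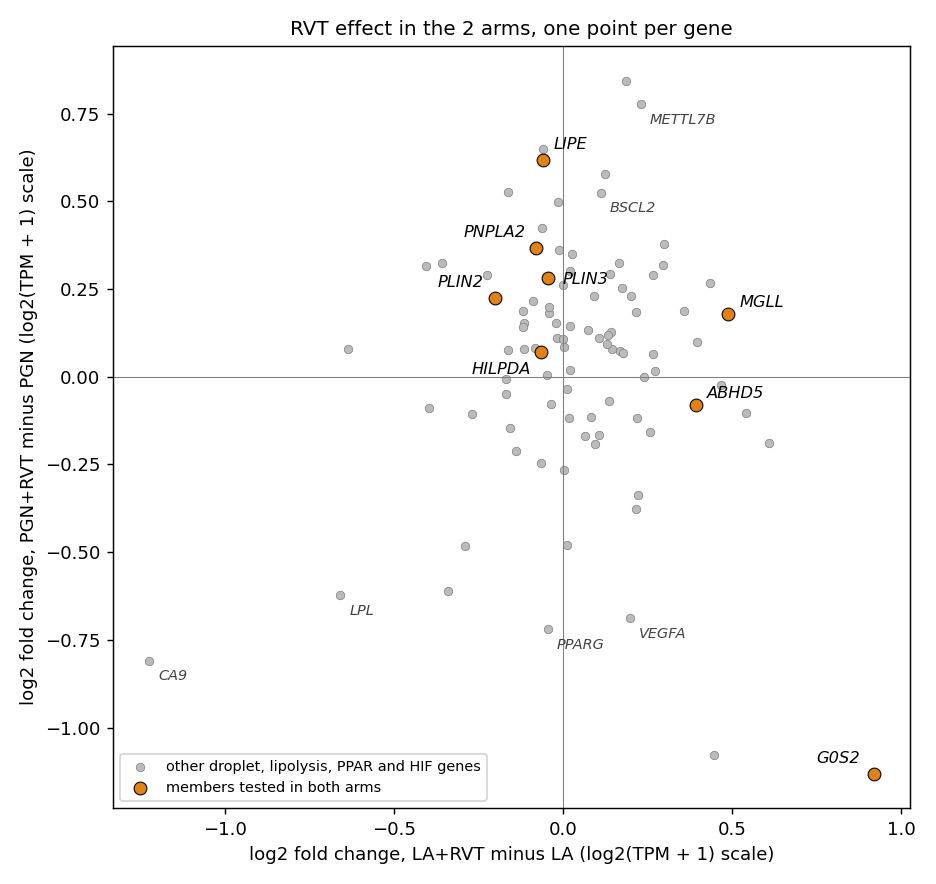
log2 fold change with RVT under LA (horizontal axis) and under PGN (vertical axis), log2(TPM + 1) scale, for the 8 members tested in both arms (orange) and for the other listed droplet, lipolysis, PPAR and HIF genes (grey). G0S2 lies at -1.13 on the vertical and 0.92 on the horizontal axis, in the lower right corner, and BSCL2, LPL, PPARG, VEGFA, CA9 and METTL7B are labelled among the grey points.

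The cell identity was checked on marker lists. Of 17 sebocyte markers, 12 averaged at least 1 TPM, with KRT7 at 1171 to 1820 TPM, while AWAT2 and MC5R, both markers of sebocyte maturation, were at 0 in every library. Of 12 adipocyte markers 3 averaged at least 1 TPM, and the droplet coat gene of adipocytes, PLIN1, was at most 0.39 TPM and ADIPOQ at most 0.01 TPM. The summed adipocyte markers, mostly LPL, CFD and RBP4, were 20.02 to 23.5 TPM with PGN+RVT and 22.4 to 22.8 TPM with PGN, and 15.3 to 17.3 TPM with LA+RVT and 19.4 to 22.2 TPM with LA. Of 9 keratinocyte markers 7 reached 1 TPM, and their summed level was 502 to 520 TPM with PGN+RVT and 678 to 695 TPM with PGN, and 234 to 246 TPM with LA+RVT and 262 to 281 TPM with LA. Of 8 macrophage markers 2 averaged at least 1 TPM and CD163 was at 0. The sum of the 8 was 52.4 to 54.2 TPM with PGN+RVT and 35.1 to 38.5 TPM with PGN. In the LA arm it was 55.0 to 58.9 TPM with LA+RVT and 47.9 to 51.8 TPM with LA. Most of it was CD68, which averaged 49.7 TPM with PGN+RVT, 32.4 with PGN, 54.2 with LA+RVT and 46.6 with LA. The endothelial list, of which 1 of 6 (CDH5) reached 1 TPM, summed to 23.4 to 24.2 TPM with PGN+RVT and 24.9 to 26.5 TPM with PGN, and to 7.3 to 8.11 TPM with LA+RVT and 17.6 to 18.1 TPM with LA. On the melanocyte list 2 of 6 averaged at least 1 TPM, and MITF made up most of the sum. That sum was 29.8 to 31.2 TPM with PGN+RVT and 19.4 to 25.0 TPM with PGN. In the LA arm it was 31.3 to 33.6 TPM with LA+RVT and 25.7 to 27.4 TPM with LA. The fibroblast list, of which 2 of 8 averaged at least 1 TPM, summed to 10.4 to 16.4 TPM with overlap in both arms. The summed sebocyte markers were 2248 to 2313 TPM with PGN+RVT and 2182 to 2286 TPM with PGN, and 1962 to 1999 TPM with LA+RVT and 1678 to 1716 TPM with LA. KRT7 made up most of that sum, averaging 1670 TPM with PGN+RVT, 1750 with PGN, 1470 with LA+RVT and 1200 with LA. Other sebocyte markers moved both ways with RVT under PGN. Means fell for MUC1 (64.0 to 43.5 TPM), PPARG (38.7 to 23.1) and PRDM1 (6.96 to 3.42). They rose for SOX9 (22.4 to 39.3 TPM), FADS2 (56.7 to 120) and FASN (77.4 to 123). The part of these shifts in the results on the droplet genes was not tested.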

How the data were processed

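Each of the 12 libraries (total RNA, standard Illumina library preparation per the labels' protocols) has 1 column in 1 of 2 tables of TPM that the authors deposited, 1 table per stimulus. The tools used were HISAT2 2.1.0, RSEM 1.3.1 and DESeq2 1.24.0 with GRCh38.p13, per the submitters' processing notes, with no role given. Annotation release and strand use are not given in the sources used here. TPM columns, as deposited by the authors, have 2 decimals and sum to 994373 to 997060, and they hold no read depth, so no interval from counts is given. The tables list 60671 (LA) and 60666 (PGN) genes, and 1432 of 60630 shared identifiers carry different names. No column belonged to an unknown sample.

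Values were transformed as log2(TPM + 1) and genes averaging 1 TPM or more in the fitted libraries entered limma 3.58.1 (R 4.3.3), two-sided, with a trended prior variance, Benjamini-Hochberg adjustment over all genes and a threshold of 0.05. Each arm was fitted on its own 6 libraries, and the difference of the RVT effects on 12 with 1 mean per group, genes joined by identifier. Ratios and the perilipin sum were compared with exact permutation tests in Python 3.11.15. Alternatives changed the pseudocount (0.1 TPM), filter, scaling, prior, replicate block and each library in turn.

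All 10 members are described. From each other list, the text describes some of the called genes of smallest p in an arm or in the difference, with at most 4 per comparison allowed. Not every gene of smallest p is described. The regulators PPARA, PPARD, PPARG, HIF1A and EPAS1 are given. The members, lists and rules were chosen with earlier results of these data known. Symbols are those of the tables. The values of 1 listed gene are not reported here.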

Additional observations from a re-analysis of the deposited data

Results flagged for a closer look

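For 4 of the droplet genes the RVT effect differed between the 2 stimuli when the difference itself was tested (limma, PGN arm minus LA arm, 12 libraries). G0S2 differed by -2.05 on the log2 scale, with all 3 RVT libraries below all 3 PGN libraries and all 3 RVT libraries above all 3 LA libraries. PNPLA2 differed by 0.45 and PLIN3 by 0.33, both higher with RVT in 3 of 3 libraries under PGN and overlapping under LA. MGLL differed by -0.31, being higher with RVT in 3 of 3 libraries in each arm and by more under LA.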

How the results depend on the processing

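The G0S2 calls held in every alternative run, with log2 fold changes of -1.20 to -1.07 under PGN, 0.87 to 0.97 under LA and -2.12 to -1.99 for their difference, and so did those of PLIN3 under PGN, MGLL under LA and the 4 differences. With 1 library left out, the members called were 2 to 4 under PGN (2 without PGN+RVT replicate 1, when PNPLA2 and LIPE were lost), 2 throughout under LA and 4 or 5 for the difference. All genes called under PGN numbered 2277, against 1384 without the filter and 1095 to 1861 with 1 library left out. Under LA they numbered 2426, against 1610 without the filter, 1502 with the replicate block and 1428 to 1690 with 1 library left out. Equalising library medians changed the split of calls to 850 higher and 1020 lower under PGN, from 1557 and 720, and to 1041 and 1080 under LA, from 1645 and 781; positive and negative differences became 983 and 1210, from 1173 and 1067. Results near 0 changed sign with 1 library left out: the log2 ratio of HILPDA to PNPLA2 under LA (-0.083 to 0.129), and the log2 fold changes of LIPE (-0.222 to 0.049), HILPDA (-0.145 to 0.046) and PPARA (-0.206 to 0.064) under LA, of ABHD5 (-0.180 to 0.030) and EPAS1 (-0.022 to 0.042) under PGN, and of PPARD in the difference (-0.007 to 0.062). EPAS1 under PGN was -0.042 with medians equalised. The causes were not tested. The perilipin sum uses no pseudocount, so that alternative was not run for it.

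Deviations of same-numbered libraries from their group means correlated at -0.07 to 0.04, and those of differently numbered libraries at -0.04 to 0.06. No shared replicate effect was seen, which cannot tell whether same-numbered samples were handled together. With the replicate block, 3 members were called under PGN (LIPE lost its call, adjusted p = 0.0682), 2 under LA and 4 in the difference, and all genes called numbered 1574 under PGN and 1730 for the difference.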
